A study of Homo sapiens with 9 samples.

Results

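The 14-3-3 proteins were measured as the transcripts of 7 genes, YWHAB, YWHAE, YWHAG, YWHAH, YWHAQ, YWHAZ and SFN, in HEK293T cells in which the level of BRD1 was raised or lowered. Every probe set with one of these symbols and no other was taken, which gave 23 of the 45259 probe sets with a single symbol and 7 of the 18239 genes they cover. YWHAZ is read by 6 probe sets, YWHAB by 5, YWHAE by 4, YWHAG by 3, YWHAH and YWHAQ by 2 each, and SFN by 1. Each gene was described probe set by probe set and by the mean of its probe sets, called the gene mean.

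A 14-3-3 protein is a small acidic adaptor that works as a dimer, with itself or with another isoform. Each subunit holds a groove that binds a phosphorylated serine or threonine of a client protein, and binding can keep a client in the cytoplasm, mask a surface of it or hold it in 1 shape. RAF kinases, CDC25 phosphatases, FOXO factors, BAD, YAP1 and class IIa histone deacetylases are known clients. YWHAE, YWHAZ, YWHAB, YWHAG and YWHAH were among the proteins that came down with tagged BRD1 in the study's co-immunoprecipitations, and the arrays answer the separate question of whether the transcripts of the family shifted with BRD1. SFN, the sigma isoform, is best known from epithelial cells as a target of p53.

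HEK293T is a human embryonic kidney line that carries the SV40 large T antigen, and all 9 arrays come from it. One array each was made from untreated cells, from cells with stable or episomal expression of V5-tagged BRD1-S, and from cells with the same for BRD1-L, the short and long isoforms of a scaffold of histone acetyltransferase complexes. The other 6 arrays are 3 of cells given siRNA against BRD1 and 3 of cells given control siRNA, which the labels call mock and the study's methods scrambled siRNA. They form 1 pair made with a Qiagen kit and 2 pairs made with a Dharmacon kit, named Qiagen, Dharmacon 1 and Dharmacon 2 here. RNA of the siRNA cultures was taken a day after transfection. The study counts the 3 pairs as separate knockdown experiments, and p-values measure the spread between these arrays. Whether an expressing line is 1 clone is not given in the sources used here.

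The values are log2 intensities between 2.80 and 14.47, with array medians between 5.41 and 5.53, and 42.6% of all probe sets hold the same value on 2 or more arrays. BRD1 had a gene mean of 7.61 in untreated cells, 9.27 with BRD1-S and 9.30 with BRD1-L, and the rise came from 1 of its 3 probe sets. With BRD1 siRNA it read 7.07, 6.94 and 6.75 in the Qiagen, Dharmacon 1 and Dharmacon 2 pairs, against 7.82, 7.79 and 7.75 with control siRNA. Markers of blood, liver, endothelial cells and fibroblasts (PTPRC, CD3E, HBB, ALB, PECAM1 and COL1A1) lay between 3.30 and 4.73 on all arrays, below the median of all values of 5.47. NEFL, a neurofilament gene that HEK293T cells express, read 6.67 in BRD1-L cells and 9.99 to 10.63 on the other arrays. These differences accompany BRD1-L on its single array, and their part in the values of the family was not tested.

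The genes lie on 7 chromosomes. In GRCh38.p14, YWHAB is on chromosome 20 at 44885705 to 44908532, YWHAE on chromosome 17 at 1344275 to 1400222, YWHAG on chromosome 7 at 76326799 to 76358991, YWHAH on chromosome 22 at 31944535 to 31957603, YWHAQ on chromosome 2 at 9583967 to 9630997 and SFN on chromosome 1 at 26863149 to 26864456. The noncoding gene YWHAH-AS1 overlaps the start of YWHAH on the opposite strand, and its 3 probe sets lay between 3.67 and 4.50. RefSeq promoters were matched for 6 members. The 250 bases before the start are shown for YWHAB, which stands low on 2 control arrays, for YWHAE, which stands low on 1 siRNA array, for YWHAQ, which reads lower on the siRNA arrays, and for SFN, the member with the dimmest signal. Capitals mark matches on either strand to a GC box, written GGGCGG. They also mark the CCAAT box, whose name gives its letters. The third motif marked is of the ETS type, CGGAAGT. These motifs were picked after the sequences had been seen.
YWHAB, chr20:44885455-44885704, plus strand: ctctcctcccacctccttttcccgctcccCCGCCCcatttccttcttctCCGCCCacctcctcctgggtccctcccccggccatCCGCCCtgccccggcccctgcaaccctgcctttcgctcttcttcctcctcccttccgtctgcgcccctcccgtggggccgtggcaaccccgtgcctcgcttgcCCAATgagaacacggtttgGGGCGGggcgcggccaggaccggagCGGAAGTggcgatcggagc
YWHAE, chr17:1400223-1400472, minus strand: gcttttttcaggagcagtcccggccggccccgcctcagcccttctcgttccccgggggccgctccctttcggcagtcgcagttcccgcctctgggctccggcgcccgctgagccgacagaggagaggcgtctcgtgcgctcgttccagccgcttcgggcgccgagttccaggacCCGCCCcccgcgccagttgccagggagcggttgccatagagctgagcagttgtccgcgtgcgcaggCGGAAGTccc
YWHAQ, chr2:9630998-9631247, minus strand: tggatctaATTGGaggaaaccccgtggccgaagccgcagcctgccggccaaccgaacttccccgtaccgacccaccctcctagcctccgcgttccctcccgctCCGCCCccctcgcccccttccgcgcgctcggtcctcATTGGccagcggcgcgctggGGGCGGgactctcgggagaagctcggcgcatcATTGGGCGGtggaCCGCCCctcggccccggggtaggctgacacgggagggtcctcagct
SFN, chr1:26862899-26863148, plus strand: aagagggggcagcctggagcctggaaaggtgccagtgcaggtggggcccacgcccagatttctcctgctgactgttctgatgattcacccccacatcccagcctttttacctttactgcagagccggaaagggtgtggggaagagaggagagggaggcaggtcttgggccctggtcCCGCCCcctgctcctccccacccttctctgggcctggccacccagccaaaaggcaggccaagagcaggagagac

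The promoters of YWHAB, YWHAE, YWHAG, YWHAH and YWHAQ were rich in G and C, at 70.4% to 72.0%, and their CG dinucleotides occurred at 0.761 to 1.079 of the number that base composition gives. The promoter of SFN held 62.8% G and C and 3 CG dinucleotides, a ratio of 0.122. Over 35116 promoters of the same length the median GC content was 58.0% and the quartiles of the CG ratio were 0.22 and 0.845. SFN therefore lay below the lower quartile of that ratio, whereas YWHAE, YWHAH and YWHAQ lay above the upper one. A GC box was found in all 6 promoters (4 matches in YWHAB, YWHAG and YWHAQ, 3 in YWHAH and 1 in YWHAE and SFN), and 42.6% of all promoters hold one. CCAAT was found in YWHAB and, 3 times, in YWHAQ, where 1 match overlaps a GC box, and in 32.0% of all promoters. The ETS-type motif was found in YWHAB and YWHAE and in 5.69% of all promoters. YWHAH alone held the cyclic AMP response element TGACGTCA, which 1.65% of all promoters hold, and a TATA box (TATAAA), which 10.7% hold, both searched on either strand. A match is a description of letters and was not tied to a transcript level.

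YWHAB, YWHAH, YWHAQ and YWHAZ gave bright signals, with gene means above 11 on every array, YWHAE and YWHAG lay between 7.18 and 8.77, and SFN was at or below 4.82 throughout. Probe sets differ in affinity, so these levels do not rank the transcripts. Of the 23 probe sets 21 were above the median of all values on all 9 arrays. The exceptions, below it on every array, were the SFN probe set and 11762793_at of YWHAE, so that differences in SFN carry little weight. Over the 9 arrays the gene mean of YWHAE spanned 0.93 log2 units, the widest range in the family, and those of YWHAQ and YWHAH spanned 0.23 and 0.24, the narrowest.

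**Figure D1:**
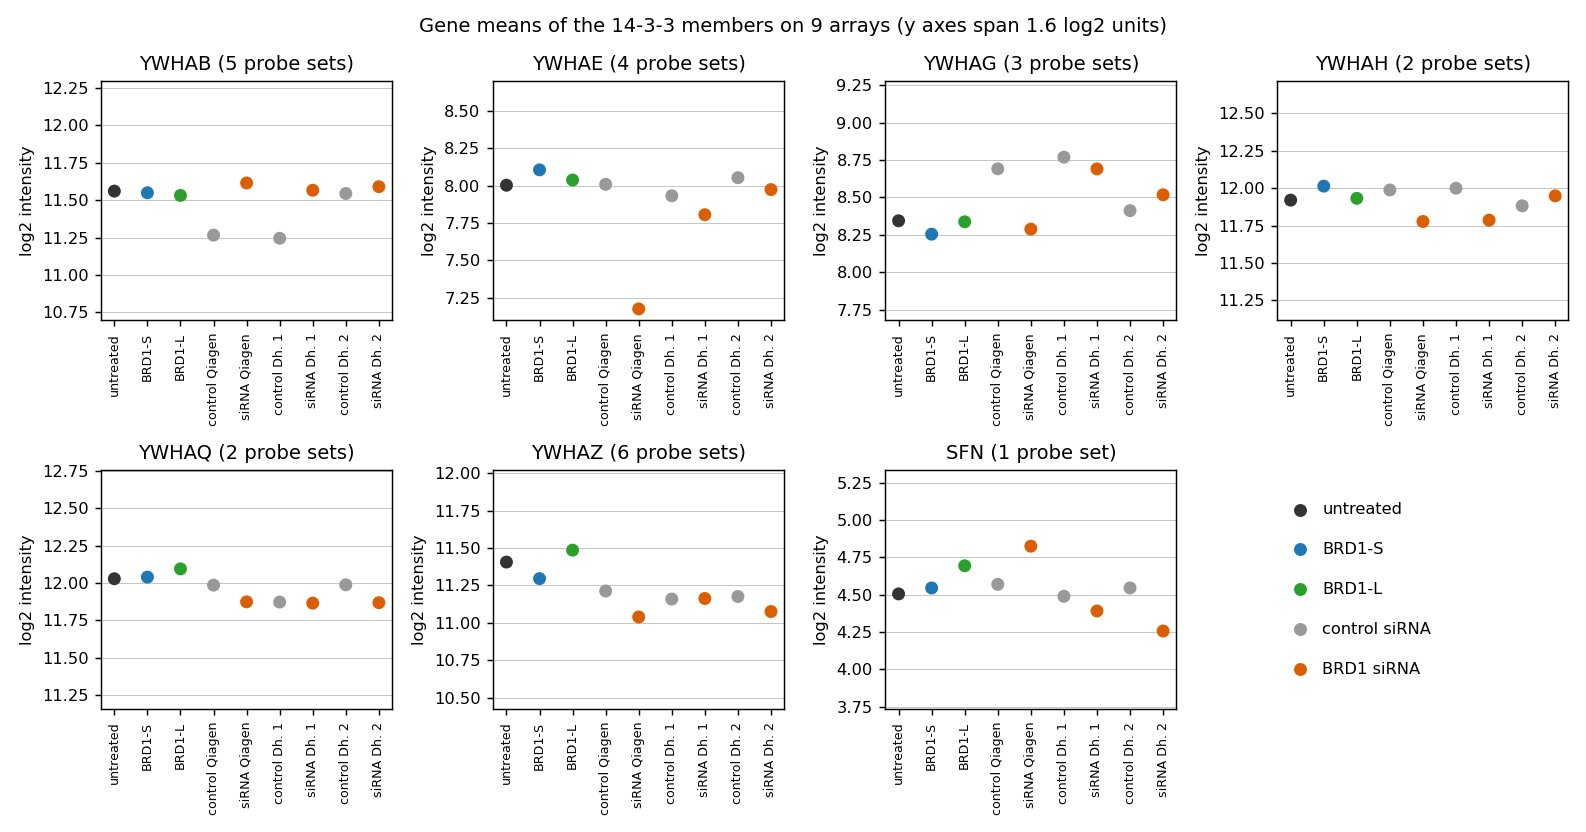
Gene mean (log2 intensity, y axis) of each member on each of the 9 arrays (x axis, Dh. for Dharmacon), 1 point per array, coloured by group, with axes that span the same number of log2 units. YWHAE stands low at 7.18 on the BRD1 siRNA Qiagen array, and YWHAB stands low at 11.25 and 11.27 on 2 control siRNA arrays.

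In cells that express BRD1-S no member passed 1.5-fold, the threshold of the study, on any probe set. The share of all genes with a probe set past it was 2.73%. The gene mean of YWHAE was 8.00 in untreated cells and 8.11 in BRD1-S cells, a difference of 0.10, the highest of the 7. YWHAZ, at 11.41 and 11.30, had the lowest, with a difference of -0.11. The other members differed by -0.09 to 0.09, the median over 7 genes was 0.01 against 0.00 over all genes, and the 23 probe sets spanned -0.23 to 0.24. With 1 array of each kind there is no replicate check.

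In cells that express BRD1-L no member passed 1.5-fold either, where 10.4% of all genes did. YWHAZ read 11.49 against 11.41 in untreated cells, a difference of 0.08, with all 6 of its probe sets above untreated. YWHAQ, the theta isoform, read 12.10 against 12.03, a difference of 0.07. SFN differed by 0.19 at a signal below the median of all values, and YWHAB, YWHAE, YWHAG and YWHAH differed by -0.03 to 0.03. YWHAE differed by 0.03 as gene mean and by -0.03 over its 3 probe sets above the median of all values. The member median was 0.03 against 0.00 over all genes. Between the isoforms, which share the untreated array as their reference, YWHAZ was 0.19 higher in BRD1-L than in BRD1-S cells and YWHAH was 0.08 lower. Again no member passed 1.5-fold, where 1245 of 18239 genes did.

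**Figure D2:**
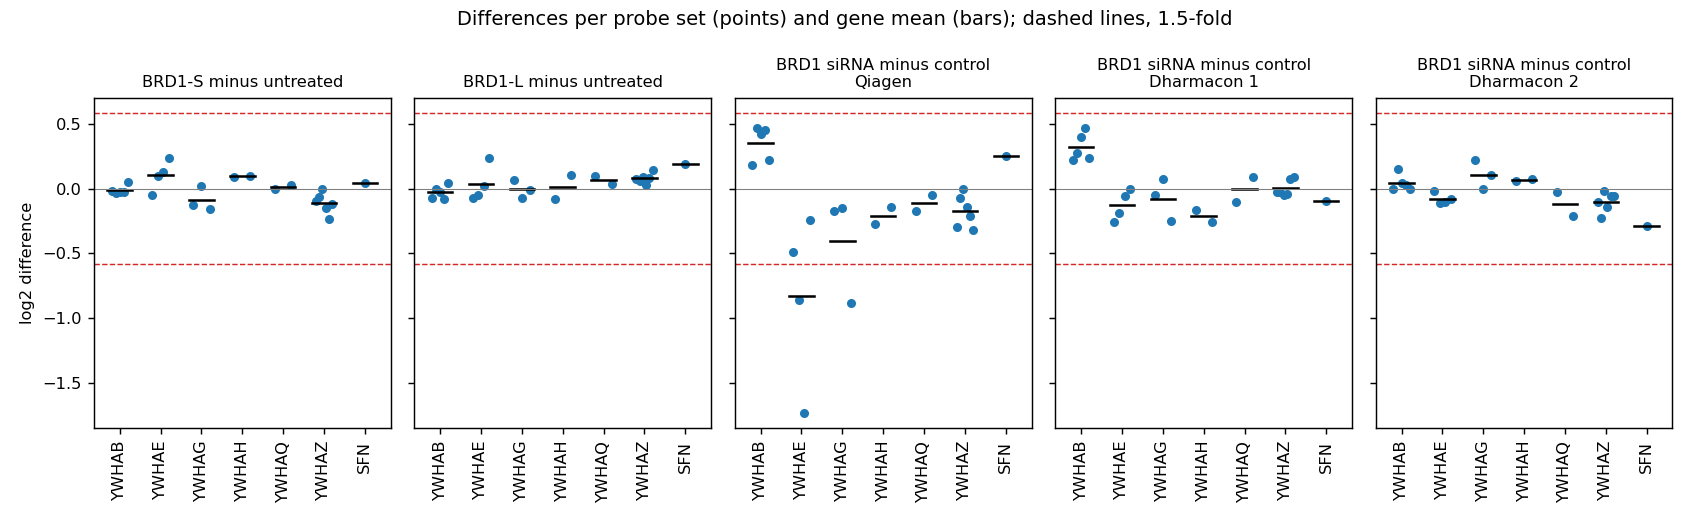
Differences in log2 intensity (y axis) of the 23 probe sets (points) and of the 7 genes (bars, mean of the probe sets) in 5 comparisons of 1 array with 1 array, with dashed lines at 1.5-fold. In the cells that express either isoform all points lie between -0.23 and 0.24, and 3 points, 2 of YWHAE and 1 of YWHAG, lie below the lower line in the Qiagen pair.

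YWHAE, the epsilon isoform, had the largest difference of all members between BRD1 siRNA and control siRNA, in the Qiagen pair. As RNA of whole cultures was measured, fewer cells with the transcript and less of it in each cell cannot be told apart. Its gene mean read 7.18 on the BRD1 siRNA array and 8.01 on the control array of that pair. In Dharmacon 1 it read 7.81 with BRD1 siRNA and 7.93 with control siRNA, and in Dharmacon 2 7.97 and 8.05. BRD1-S, BRD1-L and untreated cells read 8.11, 8.04 and 8.00. The Qiagen siRNA array was therefore the lowest of the 9 and the other 8 lay within 7.81 to 8.11. The differences within pairs were -0.83, -0.13 and -0.08.

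The low reading of YWHAE was seen on the 3 bright probe sets and differed in size between them. The probe set 11758309_s_at read 6.37 against 8.11 in the Qiagen pair, a difference of -1.74. The probe set 11753518_x_at read 8.78 against 9.65, and 11753517_s_at 9.69 against 10.18, differences of -0.86 and -0.49. On each of the 3 the Qiagen siRNA array was the lowest of all 9. The fourth, 11762793_at, stayed between 3.86 and 4.22 and held the same value on 5 arrays. Over the 3 bright probe sets the mean difference was -1.03 in the Qiagen pair, -0.17 in Dharmacon 1 and -0.08 in Dharmacon 2. A probe set that YWHAE shares with its pseudogene YWHAEP5, outside the rule, read 8.48 against 9.52 in the Qiagen pair, and one shared with PAFAH1B1 read 11.02 against 11.20. A gene mean that is lowest on the Qiagen siRNA array and more than 1.5-fold below the next lowest array was found for 0.104% of genes (19 of 18239), and for 1 of the 7 members. This pattern was set after the values of YWHAE were seen, so its share is a description and no support for a change.

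**Figure D3:**
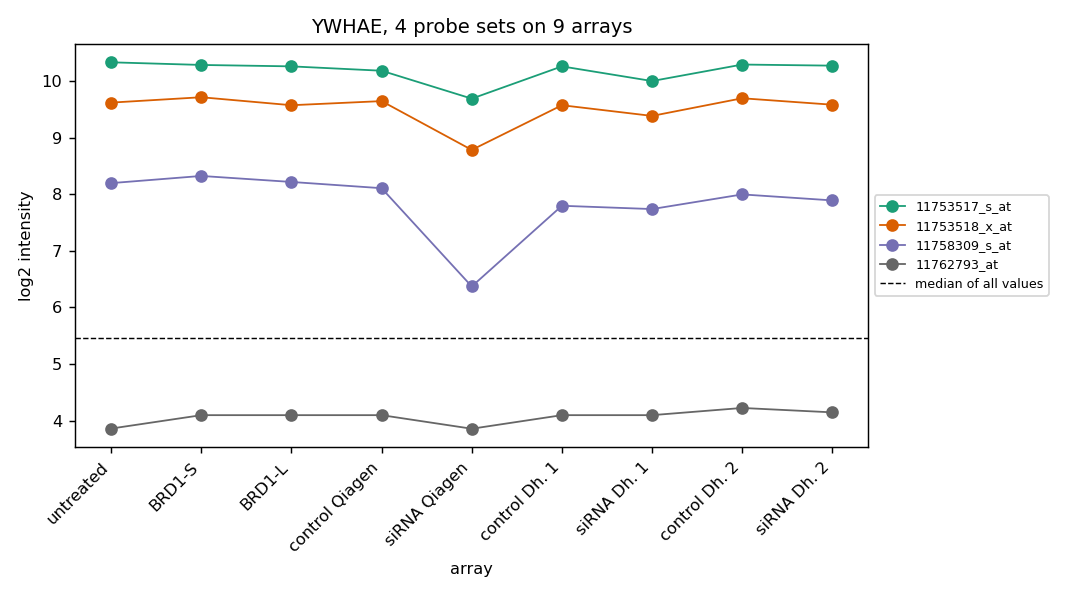
Log2 intensity (y axis) of the 4 probe sets of YWHAE on the 9 arrays (x axis), with the median of all values as a dashed line. The 3 bright probe sets dip on the BRD1 siRNA Qiagen array, to 9.69, 8.78 and 6.37, and the dim one stays below the median of all values.

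YWHAG, the gamma isoform, was the other member past 1.5-fold in the Qiagen pair. Its probe set 11749397_a_at read 5.56 with BRD1 siRNA and 6.45 with control siRNA, a difference of -0.88, and the siRNA value was the lowest of the 9 arrays. In Dharmacon 1 it read 6.32 and 6.58, and in Dharmacon 2 6.17 and 6.06. The brightest probe set of YWHAG, 11744340_s_at, read 11.53 and 11.70 in the Qiagen pair, a difference of -0.17, and so did not pass. The gene means were 8.29 and 8.69 in the Qiagen pair, 8.69 and 8.77 in Dharmacon 1, and 8.52 and 8.41 in Dharmacon 2. The pairs thus did not share a direction, with differences of -0.40, -0.08 and 0.11.

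Counted by the 1.5-fold rule, 2 of 7 members (YWHAE and YWHAG) were lower and 0 higher in the Qiagen pair, against 13.3% of all genes past the threshold in either direction. Of the member probe sets 3 of 23 passed, against 7.42% of all probe sets. In Dharmacon 1 the count was 0 of 7 against 10.1% of genes, and in Dharmacon 2 0 of 7 against 3.13%. The member medians were -0.17, -0.08 and -0.08, beside 0.00, 0.01 and -0.03 over all genes. BRD1 itself read lower with BRD1 siRNA in each of the 3 pairs.

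YWHAB, the beta isoform, differed between pairs through its controls. It read 11.27 on the Qiagen control array and 11.25 on the Dharmacon 1 control array. On the other 7 arrays it lay between 11.53 and 11.61, the Dharmacon 2 control at 11.54 and untreated cells at 11.56 included. BRD1 siRNA arrays read 11.61, 11.57 and 11.59, so the differences within pairs were 0.35, 0.32 and 0.05. Neighbours in the order of the 7 higher arrays lie at most 0.025 apart, close to the SD of 0.024 of the BRD1 siRNA arrays. All 5 probe sets of YWHAB placed these 2 controls below the other 7 arrays. So did 8.83% of all genes, and 1 of the 7 members. That split of the arrays was chosen after the values were seen. HPRT1, a housekeeping gene of the study, read 11.79 and 11.78 on the same 2 arrays and 12.31 to 12.61 on the others, whereas GAPDH stayed between 13.41 and 13.50. The part of whatever sets these 2 controls apart in the YWHAB differences was not tested.

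YWHAH, the eta isoform, read 11.78 against 11.99 in the Qiagen pair and 11.79 against 12.00 in Dharmacon 1, differences of -0.21 in both. In Dharmacon 2 it read 11.95 against 11.88, and untreated, BRD1-S and BRD1-L cells read 11.92, 12.01 and 11.93. The 2 lowest arrays were BRD1 siRNA arrays, but the third siRNA array lay among the controls. SFN read 4.82 against 4.57 in the Qiagen pair, 4.39 against 4.49 in Dharmacon 1 and 4.26 against 4.55 in Dharmacon 2. Its highest and its lowest array were thus both BRD1 siRNA arrays.

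Fitted over the 3 pairs with the kit as a covariate, no member passed the test of BRD1 siRNA against control siRNA. limma called 0% of 18239 genes at an adjusted p of 0.05, with 894 genes at an unadjusted p under 0.05, and BRD1 at -0.86 had a limma p of 5.6e-05 and an adjusted p of 0.869. Without the Dharmacon 2 control array limma called 33 genes, none of them a member. YWHAB differed by 0.24 (SE 0.10, 95% interval -0.01 to 0.49, limma adjusted p = 0.869), higher in 3 of 3 pairs, and by 0.34 (limma adjusted p = 0.151) without the Dharmacon 2 control. YWHAE differed by -0.35 (SE 0.16, interval -0.74 to 0.05, limma adjusted p = 0.869), lower in 3 of 3 pairs, and by -0.10 from the Dharmacon arrays alone. The estimates of YWHAG, YWHAH, YWHAQ, YWHAZ and SFN lay between -0.13 and -0.04, with intervals that include 0. The widest of these, for YWHAG, ran from -0.47 to 0.22 and the narrowest, for YWHAQ, from -0.25 to 0.09. A fall of 1 log2 unit is outside the 95% intervals of the gene means of the 6 YWHA genes. For YWHAE that bound does not hold on every probe set, since the interval of the bright 11758309_s_at ran from -1.45 to 0.19. SFN reads too low for its interval to bound a fall.

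Among probe sets limma called 0% of 49386 (2498 at an unadjusted p under 0.05), and 1 member probe set, 11725043_a_at of YWHAB, was among the latter, with a difference of 0.30 (limma adjusted p = 0.847). The difference between the kits was tested by an interaction, whose error rests on the 4 Dharmacon arrays. It called 0% of genes (160 at an unadjusted p under 0.05). YWHAE was 0.73 log2 units lower in the Qiagen pair than the Dharmacon pairs give (estimate -0.73, interval -1.24 to -0.22, limma adjusted p = 1), and SFN 0.45 higher (limma adjusted p = 1).

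**Figure D4:**
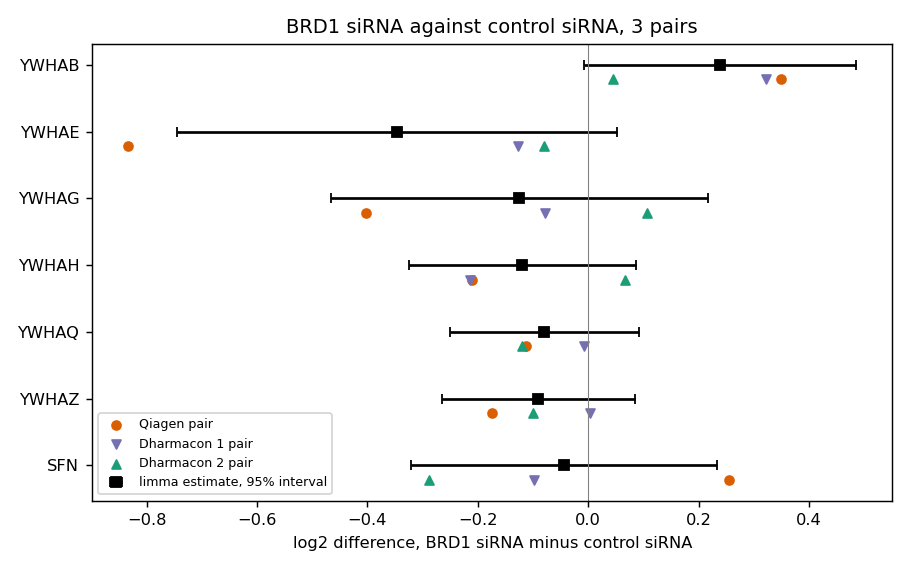
Difference in log2 intensity between BRD1 siRNA and control siRNA (x axis) for each member (y axis), as the limma estimate with its 95% interval (squares and bars, 3 arrays against 3) and as the gene-mean difference in each pair (coloured symbols). All 7 intervals include 0, and the Qiagen pair lies at -0.83 for YWHAE, apart from the Dharmacon pairs at -0.13 and -0.08.

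YWHAZ and YWHAQ, the zeta and theta isoforms, read lower on all siRNA arrays than on the rest, whether the siRNA was against BRD1 or a control. YWHAZ, on chromosome 8 (GRCh38.p14, 100916523 to 100953382), read 11.04, 11.16 and 11.08 with BRD1 siRNA and 11.21, 11.16 and 11.18 with control siRNA, in the order Qiagen, Dharmacon 1 and Dharmacon 2. Untreated, BRD1-S and BRD1-L cells read 11.41, 11.30 and 11.49. The groups did not overlap, and the gap between the highest siRNA array and the lowest of the other 3 was 0.08. The SD was 0.03 among the control siRNA arrays and 0.06 among the BRD1 siRNA arrays, and the other 3 arrays ran from 11.30 to 11.49. YWHAQ read 11.87 on all 3 BRD1 siRNA arrays and 11.99, 11.87 and 11.99 on the controls, against 12.03, 12.04 and 12.10 on the other arrays. Here the gap was 0.04, smaller than the SD of 0.07 among the control siRNA arrays. The separation held in 4 of 6 probe sets of YWHAZ and in 1 of 2 of YWHAQ. A probe set that YWHAQ shares with its pseudogene YWHAQP8, outside the rule, did not separate the groups. It read 12.175 on the Qiagen siRNA array, above 12.142 in untreated and 12.158 in BRD1-L cells. Of all genes 4.74% had all 6 siRNA arrays below the other 3, as had 2 of the 7 members, and 4.3% had them above, as had 0 members.

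YWHAG had 1 probe set, 11746826_a_at, with all siRNA arrays above the rest. It read 7.78, 8.23 and 7.77 with BRD1 siRNA and 7.93, 8.16 and 7.77 with control siRNA, against 7.34, 7.36 and 7.27 in untreated, BRD1-S and BRD1-L cells. Its other probe sets overlapped between these groups, and the brightest, 11744340_s_at, had its lowest value, 11.40, on a control siRNA array. The probe sets of YWHAG thus gave different patterns, and the gene mean overlapped between the groups. The probe set 11746826_a_at was picked from the member probe sets after the values were seen. By gene mean 4.3% of all genes had the siRNA arrays above the rest. The share of all probe sets with this pattern was not counted, so the separation is only a description of 1 probe set.

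**Figure D5:**
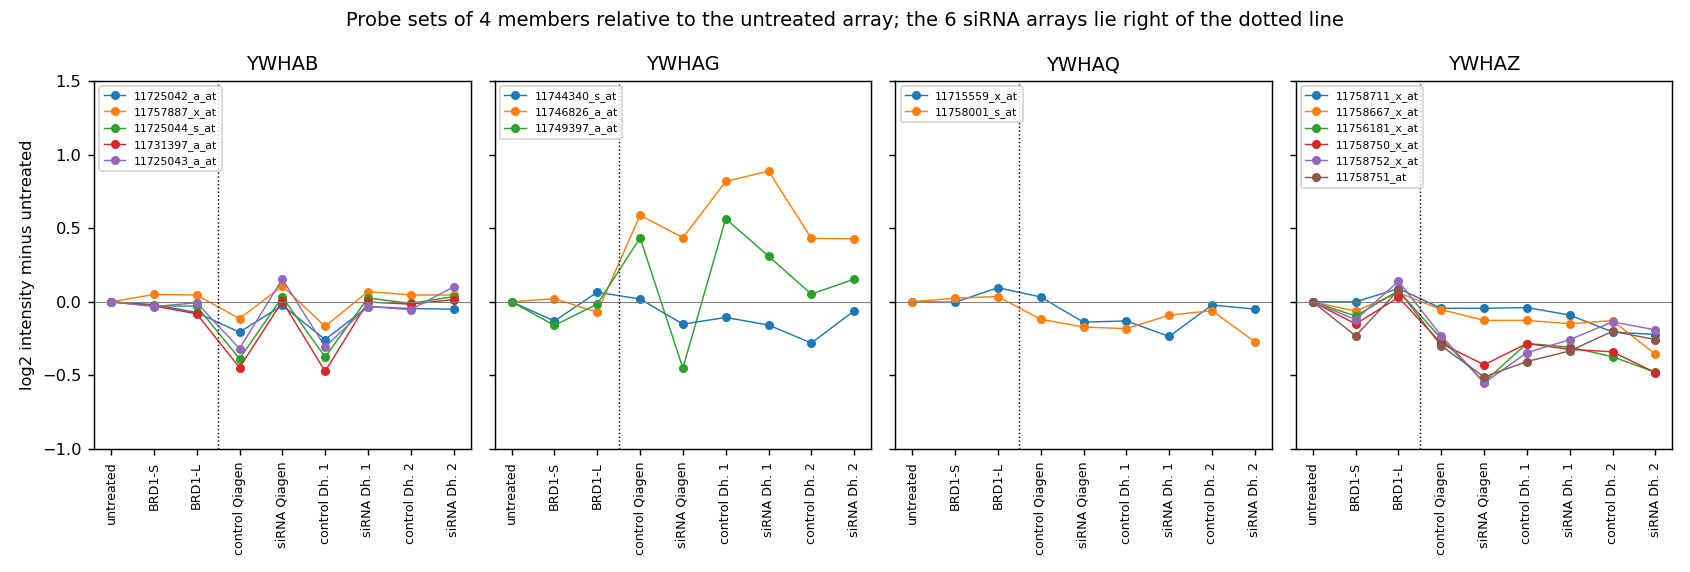
Log2 intensity minus the untreated array (y axis) of every probe set of YWHAB, YWHAG, YWHAQ and YWHAZ on the 9 arrays (x axis), with the 6 siRNA arrays right of the dotted line. The 5 probe sets of YWHAB dip on the Qiagen and Dharmacon 1 control arrays, those of YWHAZ lie below untreated on the siRNA arrays, and 1 probe set of YWHAG lies above it.

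This grouping of 6 siRNA arrays against the other 3 was chosen after the values were seen, and it sets transfected cells of both kinds against untreated and expressing cells, so that transfection and any batch of the siRNA cultures cannot be told apart. The limma fit had no covariate and took untreated, BRD1-S and BRD1-L cells, 1 array each, as 1 group. Its SE and p therefore do not measure the spread between replicates of a condition. It called 0.126% of genes (23 of 18239), none of them a member, with 2863 at an unadjusted p under 0.05. YWHAZ differed by -0.26 (SE 0.06, interval -0.40 to -0.12, limma adjusted p = 0.118), lower on 6 of 6 siRNA arrays. YWHAQ differed by -0.15 (limma adjusted p = 0.236), and the YWHAG probe set 11746826_a_at by 0.61 (limma adjusted p = 0.0949).

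The control siRNA arrays were set against each other and against untreated cells by the same rule. No member passed 1.5-fold between the Qiagen and Dharmacon 1 controls, where 1.23% of genes did, between the Qiagen and Dharmacon 2 controls (11.5%) or between the Dharmacon controls (12.4%). Against untreated cells 1 of 7 members, YWHAG through 11746826_a_at, was higher on the Qiagen control, by 0.59, and on the Dharmacon 1 control, by 0.82, where 10.7% and 11.9% of genes passed. On the Dharmacon 2 control 0 of 7 passed, against 4.81% of genes. YWHAE had an SD of 0.06 over the 3 control siRNA arrays and of 0.42 over the 3 BRD1 siRNA arrays, the latter set by the Qiagen array.

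Clients of 14-3-3 proteins were taken from a list of 43 genes, of which 40 were measured. In BRD1-S cells 3 of 40 passed 1.5-fold on a probe set. FOXO4 and IRS2, an insulin receptor substrate, were higher and MARK2, a polarity kinase, was lower. In BRD1-L cells 5 of 40 passed, with CDC25B, BAD and MDM4 higher and PFKFB2 and TBC1D4 lower. FOXO4 passed on 1 of 7 probe sets and PFKFB2 on 1 of 6. Both had gene means below the median of all values on every array. Over all genes the shares were the 2.73% and 10.4% given for these comparisons. The median difference was 0.03 and 0.02, respectively. CDC25B, a phosphatase that starts mitosis, had a gene-mean difference of 0.54 in BRD1-L cells and 0.18 in BRD1-S cells, and BAD, a promoter of apoptosis that 14-3-3 proteins sequester, one of 0.54 and 0.32. No client passed on every probe set. Of the 12 measured kinases that phosphorylate 14-3-3 sites, 0 passed with BRD1-S and 1 with BRD1-L, SIK1, whose only probe set differed by -0.84.

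In the siRNA pairs 10 of 40 clients passed 1.5-fold in Qiagen, 7 in Dharmacon 1 and 0 in Dharmacon 2, beside 13.3%, 10.1% and 3.13% of all genes, with medians of 0.06, 0.11 and -0.09. A gene with more probe sets has more occasions to pass by this rule, and the counts were not adjusted for that. By gene mean no client passed 1.5-fold in these pairs, the largest in Qiagen being CRTC3 at 0.54. In Dharmacon 1 all 7 passed upwards on at least 1 probe set. Among them TSC2 had a gene-mean difference of 0.56 and CRTC3 of 0.28, whereas that of HDAC4, past on 1 of 6 probe sets, was -0.00. TSC2 read 6.35 and 6.15 on the Qiagen and Dharmacon 1 controls and 6.44 to 6.78 on the other arrays. PARD3 also read lowest on these controls, as did 8.83% of all genes, whereas CRTC3 did not set them apart. The part of these controls in the differences was not tested. In Qiagen 7 were higher and 4 lower, TBC1D1 counting in both directions. The gene means of TBC1D1, HDAC4 and IRS1, the last past in Dharmacon 1 on 1 of 3 probe sets, lay below the median of all values on every array. In Dharmacon 2 the differences were -0.09 for TSC2 and -0.17 for CRTC3. YAP1, the effector of the Hippo pathway, differed by -0.43 in Qiagen, -0.22 in Dharmacon 1 and -0.07 in Dharmacon 2. limma called 0 of the 40 clients and gave 2 an unadjusted p under 0.05, YAP1 at -0.24 and PARD3, a polarity protein, at 0.24 (limma adjusted p = 0.869 for both). The other factors of the YAP and FOXO groups, WWTR1, FOXO1, FOXO3 and FOXO4, lay between -0.03 and 0.09, the kinase ARAF at 0.14, and CDC25A, CDC25B and CDC25C between -0.02 and 0.11, all with a limma adjusted p of at least 0.887. The median over the clients was 0.04, with 26 of 40 above 0, beside a median of -0.00 over all genes. Of the 12 kinases 5 passed 1.5-fold on a probe set in Qiagen, with AKT2 and LATS2 higher and PRKACA, PRKACB and PRKD3 lower. LATS2 passed there on 2 of 3 probe sets, PRKACA and PRKACB on 1 of 4 each and PRKD3 on 1 of 6. AKT2 passed on 2 of 12 in Qiagen and on 1 of 12 in Dharmacon 2, with gene-mean differences of 0.21 and -0.19. In Dharmacon 1 2 passed, LATS2 and PRKD1, both higher, and in Dharmacon 2 1, AKT2, lower. LATS2 read 5.64 and 5.44 on the Qiagen and Dharmacon 1 controls and 5.86 to 6.13 on the other arrays. PRKD1 read 7.07 and 7.12 on these controls and 7.38 to 7.73 elsewhere. limma called none of the 12, with LATS2 at 0.37 and PRKD1 at 0.35 (limma adjusted p = 0.869 for both) the genes of this list with an unadjusted p under 0.05.

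The members did not share 1 pattern over the 9 arrays. The closest pair was YWHAQ and YWHAZ, with a Pearson r of 0.888, followed by YWHAE and YWHAH at 0.725, and the pair furthest apart was YWHAB and YWHAG at -0.713. These values are descriptions over 9 arrays that share controls and kits. Among 3181 bright and variable genes the pattern of YWHAB was most like those of MDK (r = 0.982), a secreted growth factor, CLNS1A (0.982) and TMEM65 (0.978). That of YWHAE was most like those of ARCN1 (0.976), a subunit of the coat of Golgi vesicles, HDHD2 (0.974) and OXR1 (0.966), and that of YWHAZ those of CHSY1 (0.970), MCM6 (0.960), a subunit of the replicative helicase, and GINS1 (0.950). YWHAG was closest to MRPL30 (0.960), ALCAM (0.945) and UHMK1 (0.942), YWHAH to MOSPD1 (0.951), TANK (0.940) and PLEKHB2 (0.930), and YWHAQ to SAYSD1 (0.946), SLC41A2 (0.902) and PXMP4 (0.896). SFN had the weakest likeness, to TPRN (0.912), ITPKA (0.833) and CELSR3 (0.817). All of these are the highest values among the 3181 genes. Those of YWHAE rest largely on the BRD1 siRNA Qiagen array, at 7.18, since the other arrays lie within 7.81 to 8.11. Those of YWHAB rest largely on the low Qiagen and Dharmacon 1 controls.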

How the data were processed

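Affymetrix U219 arrays of 9 HEK293T samples were used. The deposited log2 values, 1 for each of 49386 probe sets and each array, were made by the authors from probe intensities scaled to the array mean; how probes were summarised and background was removed is not given in the sources used here. No detection calls were analysed, so signal was judged against the median of all values (5.47), and the number of arrays limits the precision. Symbols came from the platform annotation: 45259 probe sets had 1 symbol, 1327 several and 2800 none, and only the first were assigned to genes. Several member probe sets may also read pseudogenes. Groups followed the labels, which number the kits in the opposite order to the study's supplement.

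A gene passed 1.5-fold when any probe set did, as in the study, with no test. BRD1 siRNA and control siRNA (3 against 3) were compared by limma 3.58.1 (R 4.3.3) over all genes and all probe sets, with the kit as covariate and Benjamini-Hochberg adjustment at 0.05. The fit of BRD1 siRNA against control siRNA was also run on simulated arrays with planted changes and noise independent between genes. Such arrays lack the shifts that many genes share on the real arrays, so they do not show how the fit handles them. Arrays of 1 kit and number deviated together across genes (r = 0.333 for Qiagen, 0.224 for Dharmacon 1 and 0.333 for Dharmacon 2), but BRD1 siRNA Dharmacon 1 correlated nearly as well with the Qiagen control (r = 0.215). The pairs are those of the kit and number in the labels, and the values do not single out the Dharmacon 1 pair. Python 3.11.15, numpy 2.4.6 and pandas 2.3.3 were used for the rest.

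The genes named are the 7 members, BRD1, for each member the 3 genes with the highest r among genes with a mean above the median of all values and an SD of at least 0.2, and set groups of clients; other clients past a threshold, YWHAH-AS1, HPRT1, GAPDH and NEFL were picked with their values in view. The members, the lists and the tests were chosen with earlier results of these data known. Alternatives were other scalings, a variance trend, all 9 arrays in the fit, the pairs as a block, the Dharmacon arrays alone, filters on dim features, the brightest probe set, a 2-fold threshold, other controls and each array left out. A further 2 alternatives, the mean over bright probe sets and counts without the Qiagen pair, were chosen after seeing the data.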

Additional observations from a re-analysis of the deposited data

Results flagged for a closer look

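YWHAZ was below untreated in BRD1-S cells (-0.11) and above it in BRD1-L cells (0.080), so the isoforms lay on opposite sides of the untreated array that both share. The difference was not tested, since each isoform has 1 array.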

How the results depend on the processing

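No member was called under any of the alternatives to the limma fit of BRD1 siRNA against control siRNA. Calls over all genes rose from 0 to 33, and over all probe sets from 0 to 106, without the Dharmacon 2 control, and stayed at 0 in the other settings. The direction held in all of them for YWHAB, YWHAE, YWHAH, YWHAQ and YWHAZ. YWHAG turned to 0.014 with the Dharmacon arrays alone, which is also its value without either Qiagen array, and ranged from -0.27 to 0.014 when each array was left out. SFN turned to 0.037 without the Dharmacon 2 siRNA array and to 0.015 without the Dharmacon 2 control, and ranged from -0.19 to 0.037. In the same way YWHAE ranged from -0.46 to -0.10 and YWHAB from 0.17 to 0.34. With the brightest probe set of each gene YWHAB gave 0.13 in place of 0.24, YWHAE -0.26 in place of -0.35, YWHAG -0.00 in place of -0.13 and YWHAZ -0.02 in place of -0.09. With the 3 pairs as a replicate block YWHAB stayed at 0.24 (limma adjusted p = 0.607) and YWHAE at -0.35 (limma adjusted p = 0.613), and no call changed. At 2-fold and for means over probe sets the count of members past the threshold in the Qiagen pair fell from 2 to 1. Over all 18239 genes it fell from 2433 to 511 and 641, respectively. The 3 pairs together had 2 members past 1.5-fold, beside 3507 of all genes. Without the Qiagen pair the member count was 0, beside 2272 of all genes, since the Dharmacon pairs had none. With the average control siRNA array, the Qiagen control or the Dharmacon 1 control in place of untreated, YWHAG passed in BRD1-S and BRD1-L cells. The member count for each isoform thus rose from 0 to 1. In the same order the genes past 1.5-fold rose from 498 to 1066, 2160 and 2387 for BRD1-S. For BRD1-L they rose from 1901 to 2354, 3386 and 3559. The causes were not tested, beyond the fewer arrays or probe sets that these settings hold. SFN and 1 YWHAE probe set lie too low to measure a fall.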
